A study of Mus musculus with 6 samples.

Results

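The spindle checkpoint genes around Bub3, the best known partner of ZFP207, were followed in newly made RNA after ZFP207 was degraded. ZFP207 is also called BuGZ. The 10 members were the rows of the count table whose symbol was Bub3, Bub1, Bub1b, Mad1l1, Mad2l1, Ttk, Knl1, Zwilch, Zw10 or Kntc1, out of 55401 gene rows, and each symbol matched 1 row. All 10 passed the filter on low counts. The cells were a 129/Ola line of mouse embryonic stem cells. Their ZFP207 carries an auxin-inducible degron (AID), a tag that lets IAA (indole-3-acetic acid, a plant hormone) send the protein to the proteasome. The depleted group was 3 libraries of ZFP207AID cells kept with IAA for 5 h, with a genotype label that names ZFP207 degradation, and the control group was 3 libraries at 0 h whose genotype label reads WT. By their titles and treatment protocol the controls were taken as degron cells without IAA. Were they untagged, the tag would differ between the groups as well. Both groups grew in the same serum medium with leukemia inhibitory factor. Cells took up 4-thiouridine (4sU), a uridine analogue built into RNA as it is made, and the labelled RNA was biotinylated and pulled down, so the values weigh newly made RNA and precursors. The sources used here do not give the pulse length, the number of degron clones or how the auxin receptor is expressed. IAA and the loss of ZFP207 cannot be told apart, because no degron-free cells with IAA were analysed here.

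The spindle checkpoint holds a cell in mitosis until every chromosome is attached to the spindle. At an unattached kinetochore the kinase Ttk (also called Mps1) phosphorylates the scaffold Knl1, which then binds Bub3 together with Bub1 or Bub1b (BubR1). Mad1l1 and Mad2l1 are recruited and turn further Mad2l1 into the form that binds Cdc20. Mad2l1, Bub1b, Bub3 and Cdc20 form the mitotic checkpoint complex, which inhibits the anaphase-promoting complex (APC/C), a ubiquitin ligase. The RZZ complex, made of Kntc1 (Rod), Zw10 and Zwilch, holds Mad1l1 and dynein at the kinetochore. In human cells BuGZ binds Bub3 through a short motif, stabilises it and helps it load onto kinetochores. Embryonic stem cells divide rapidly and express these genes.

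Libraries held 14336811 to 25916628 counts, and the members together took 16911 to 31346 counts in a library. The lowest count of any member was 873, for Zwilch in depleted replicate 3, and the highest was 6759, for Knl1 in depleted replicate 2. The first principal component of log2 CPM held 32.4% of the variance. Replicate 2 had the highest values on it, 31.9 in its depleted library and 83.5 in its control library. The other 4 libraries lay below 0, down to -65.7 for depleted replicate 3. The second component (25.8%) separated the groups. Depleted replicates 1 to 3 lay at 20.3, 71.3 and 19.2, and control replicates 1 to 3 at -44.2, -12.4 and -54.3. Embryonic stem cell markers summed to 4436 to 4980 CPM (counts relative to the TMM-scaled library size) in depleted libraries and 4038 to 4602 CPM in controls, with all 9 listed genes detected. In the paired fit described further on, 2 of the 9 were called, both higher. Over all genes tested 4.96% were called higher and 12.9% in either direction. The markers called were Utf1 (log2 fold change 0.40, adjusted p = 0.0126 in edgeR) and Klf4 (0.25, adjusted p = 0.0468). Their part in the results for the members was not tested. The 8 feeder fibroblast markers summed to 5 to 9.55 CPM in depleted libraries and 6.55 to 14.6 CPM in controls, and Postn, Col3a1, Lum and Dcn were at 0 in every library. The other marker sums were 4.52 to 8.26 CPM in depleted and 3.13 to 6.61 CPM in control libraries for 6 primitive endoderm genes, 18.3 to 30.8 CPM in depleted and 19.1 to 26.7 CPM in control libraries for 6 mesoderm or neural genes with T and Neurog2 at 0, and 0.867 to 26.2 CPM in depleted and 0 to 23.7 CPM in control libraries for 5 genes of the 2-cell-like state.

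Start regions are shown for the members whose promoter holds the letters TTTGAA close to the start, because cell cycle genes switched on for mitosis often carry this element, called the cell cycle homology region, with CCAAT boxes upstream. Each line gives the 120 bases before and the 50 bases from the annotated start, 5′ to 3′ on the gene's strand, from RefSeq on GRCm38.p6. Capitals mark TTTGAA or CCAAT on either strand.
Bub3: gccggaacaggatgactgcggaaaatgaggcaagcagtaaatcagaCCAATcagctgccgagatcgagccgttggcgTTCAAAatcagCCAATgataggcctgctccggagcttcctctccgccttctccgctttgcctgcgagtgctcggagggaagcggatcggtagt
Ttk: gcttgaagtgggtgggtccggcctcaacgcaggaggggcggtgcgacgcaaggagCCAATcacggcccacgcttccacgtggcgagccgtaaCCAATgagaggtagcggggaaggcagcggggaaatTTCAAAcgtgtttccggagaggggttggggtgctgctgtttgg
Kntc1: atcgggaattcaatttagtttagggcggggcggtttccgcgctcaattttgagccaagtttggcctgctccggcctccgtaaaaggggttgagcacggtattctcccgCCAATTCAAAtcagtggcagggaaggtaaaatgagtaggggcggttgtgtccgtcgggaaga
Bub1b: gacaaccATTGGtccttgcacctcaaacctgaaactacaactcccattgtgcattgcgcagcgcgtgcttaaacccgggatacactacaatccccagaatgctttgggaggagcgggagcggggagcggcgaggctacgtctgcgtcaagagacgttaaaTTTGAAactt
Knl1: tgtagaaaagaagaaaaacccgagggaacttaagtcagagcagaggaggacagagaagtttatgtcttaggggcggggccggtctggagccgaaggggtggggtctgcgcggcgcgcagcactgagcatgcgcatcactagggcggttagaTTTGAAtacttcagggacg

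These windows lie at chr7:131560250-131560419 for Bub3, chr9:83834569-83834738 for Ttk, chr5:123749606-123749775 for Kntc1, chr2:118598091-118598260 for Bub1b and chr2:119046999-119047168 for Knl1, all on the plus strand. Bub3 has a further annotated start, and the upstream of its starts is shown. For Bub3, Ttk, Kntc1, Bub1b and Zw10 the start used here lies some bases inside the gene interval given further on. In Kntc1 the motifs share 1 base. The promoter table, which spans 250 bases before to 50 bases after each start, held 9 of the 10 members, Zwilch being the one not listed. Of those 9 genes, 6 held TTTGAA on either strand, namely the genes above and Zw10, whose match begins 148 bases before the start. A gene can have several windows. Those of Bub3 overlap, so its matches are the same bases counted in each of them. Counted by window, 7 of the 11 windows of members held it, against 17.9% of all 32851 windows. CCAAT was found on either strand in 5 of the 9 genes, Bub1 being the one not shown above. By window this was 6 of the 11, against 37.4% of all windows. Windows of 4 members, Bub3, Ttk, Kntc1 and Bub1b, held both, which was 5 of the 11, against 6.95% of all windows. The genes with TTTGAA lay on both sides of 0 in the comparison that follows: their log2 fold changes with paired replicates ran from -0.31 for Ttk to 0.21 for Bub3.

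After 5 h of IAA the depleted and control libraries overlapped for 8 of the 10 members, and Zwilch stood lowest relative to its controls. Those without overlap were Zwilch, below its controls as 11.8% of all genes tested were, and Mad1l1, above its controls as 6.94% were. An edgeR quasi-likelihood test compared depleted with control libraries, first without regard to the replicate number (the unpaired fit) and then with the replicate number as a block (the paired fit), since libraries that share a number also shared deviations. In the unpaired fit 0 of 10 members were called at an adjusted p under 0.05, where 0.791% of 17573 genes were (0.78% lower and 0.0114% higher). At an unadjusted p under 0.05 the same edgeR fit held 1 member, Zwilch, where 10.9% of all genes passed. DESeq2 without a block called 0 members at an adjusted p under 0.05, where it called 641 of all 17573 genes. In the paired fit 2 members fell, Zwilch and Ttk, where 7.9% of all genes were called lower, and 0 of 10 rose, where 4.96% were called higher and 12.9% in either direction. At an unadjusted p under 0.05 the paired fit held 5 members, where 27.9% of all genes passed: Zwilch and Ttk, which were lower, and Mad1l1, Bub1b and Bub3, which were higher and missed the adjusted threshold. The median log2 fold change of the members was 0.138 unpaired and 0.139 paired, beside 0.0239 and 0.0181 over all genes tested. Without depleted replicate 2 the unpaired median of the members was -0.0417.

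**Figure D1:**
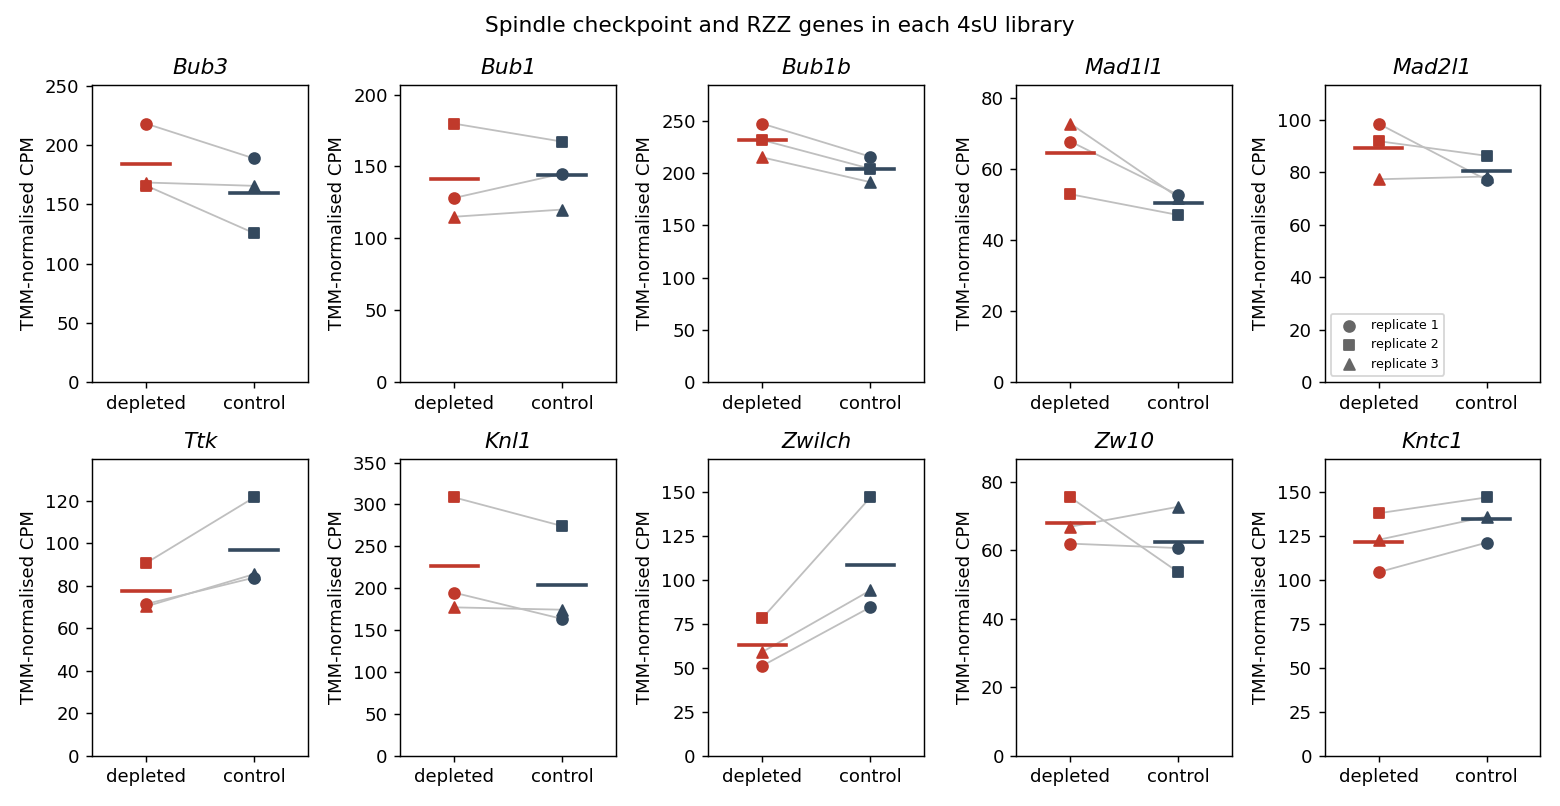
Level of each member in TMM-normalised CPM (vertical axes, from 0) in the 3 depleted (red, left) and 3 control (blue, right) libraries, with grey lines joining libraries of the same replicate number and bars at the group means. Zwilch is lower in all 3 depleted libraries than in any control, Mad1l1 is higher in all 3, and the groups of the other 8 genes overlap.

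Zfp207 RNA itself was 695, 1467 and 596 CPM in depleted replicates 1 to 3, against 545, 1116 and 548 CPM in control replicates 1 to 3. Replicate 2 was the high library in both groups. In the paired fit the log2 fold change of Zfp207 was 0.29 (SE 0.07 and adjusted p = 0.0196 in edgeR), and it was called when pair 3 was left out (0.358, adjusted p = 0.0300) but not without pair 1 (0.258, adjusted p = 0.0996) or without pair 2 (0.237, adjusted p = 0.107). Unpaired, its log2 fold change was 0.32 (edgeR adjusted p = 0.823), and -0.188 without depleted replicate 2. The degron acts on the protein, and no protein was measured here.

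Bub3 (ENSMUSG00000066979.6, chromosome 7, 131560367 to 131571895, GRCm38.p6) encodes the WD-repeat protein that ZFP207 binds. Its level was 218, 166 and 168 CPM in depleted replicates 1 to 3, against 189, 126 and 166 CPM in control replicates 1 to 3. The groups overlapped, although the depleted library was the higher one in each of the 3 pairs. The unpaired log2 fold change was 0.20 (SE 0.19 and adjusted p = 0.769 in edgeR), with a 95% interval of -0.22 to 0.63, and the paired one was 0.21 (SE 0.09 and adjusted p = 0.131 in edgeR), with an interval of 0.02 to 0.40. The paired interval, which is not adjusted for the number of genes, covers changes of up to 0.40 on the log2 scale upward. The unpaired value was 0.055 to 0.345 when single libraries were left out.

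Bub3 and its kinetochore partners at Knl1 were not called in either fit. Bub1, a kinase that docks on Knl1 through Bub3 (chromosome 2, 127800197 to 127831859), had 128, 180 and 115 CPM in depleted libraries, against 145, 167 and 120 CPM in controls. Replicate 2 was again the high library in both groups and the groups overlapped. Its log2 fold change in the paired fit was -0.05 (SE 0.08 and adjusted p = 0.786 in edgeR), with an interval of -0.23 to 0.14.

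Bub1b encodes BubR1, the pseudokinase that carries Bub3 into the mitotic checkpoint complex (chromosome 2, 118598202 to 118641592). It had 247, 232 and 215 CPM in depleted libraries, against 216, 204 and 191 CPM in controls. The depleted library was higher in every pair, by 0.197, 0.182 and 0.168 on the log2 scale, and the lowest depleted value lay just under the highest control value. Paired, the log2 fold change was 0.18 (SE 0.07 and adjusted p = 0.118 in edgeR).

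Knl1, the scaffold that receives these proteins (chromosome 2, 119047119 to 119110497), had 195, 308 and 177 CPM in depleted libraries, against 163, 274 and 174 CPM in controls. Its spread within a group was wider than the shift between groups, with replicate 2 highest in both. In the paired fit it had a log2 fold change of 0.15 (SE 0.08 and adjusted p = 0.234 in edgeR), and the unpaired one turned to -0.132 without depleted replicate 2.

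Ttk, the kinase that starts checkpoint signalling (chromosome 9, 83834651 to 83872390), fell in the paired fit. Its level was 71.4, 90.7 and 70.3 CPM in depleted libraries, against 83.8, 122 and 85.5 CPM in controls. Each depleted library lay below its own control, by 0.231, 0.422 and 0.282 on the log2 scale, while the groups overlapped because depleted replicate 2 exceeded control replicates 1 and 3. The paired log2 fold change was -0.31 (SE 0.09 and adjusted p = 0.0387 in edgeR), a fall of 1.24-fold, and the unpaired one was -0.32 (SE 0.19 and adjusted p = 0.609 in edgeR). With pair 1, 2 or 3 left out the paired log2 fold change was -0.354, -0.257 or -0.342, and the call was lost each time (adjusted p = 0.0883, 0.171 and 0.118). The unpaired log2 fold change was -0.128 without control replicate 2.

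The Mad genes had higher means in depleted than in control libraries and were not called in either fit with all libraries. Mad1l1, which anchors Mad2l1 at kinetochores (chromosome 5, 140008689 to 140321608), had 67.8, 52.9 and 72.8 CPM in depleted libraries, against 52.7, 47.1 and 52.0 CPM in controls. The groups did not overlap, as for 6.94% of all genes tested with the depleted group above, although the lowest depleted and the highest control library differed by little. The paired log2 fold change was 0.34 (SE 0.11 and adjusted p = 0.0550 in edgeR), with an interval of 0.11 to 0.57, and the unpaired one was 0.35 (SE 0.17 and adjusted p = 0.512 in edgeR). Without pair 2 the paired edgeR fit called it (log2 fold change 0.423, adjusted p = 0.0477). It was not called without pair 1 (0.327, adjusted p = 0.176) or without pair 3 (0.253, adjusted p = 0.327).

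Mad2l1, which changes shape to bind Cdc20 (chromosome 6, 66535221 to 66541107), had 98.6, 91.9 and 77.4 CPM in depleted libraries, against 77.1, 86.3 and 78.4 CPM in controls. Depleted replicate 3 lay within the controls, and the other depleted libraries lay above them. The paired log2 fold change was 0.14 (SE 0.10 and adjusted p = 0.384 in edgeR), with an interval of -0.07 to 0.36.

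Of the 3 RZZ genes, Zwilch was the one called in the paired fit. Zwilch (ENSMUSG00000032400.18, chromosome 9, 64137144 to 64173104) had 51.2, 78.3 and 59.1 CPM in depleted libraries, against 84.6, 147 and 94.1 CPM in controls. All depleted libraries lay below all controls, as for 11.8% of genes tested, and control replicate 2 was the highest by a wide margin. Its level fell 1.7-fold in the paired fit (log2 fold change -0.77, SE 0.09 and adjusted p = 2.3e-04 in edgeR), with an interval of -0.97 to -0.57. The adjusted p stayed between 9.01e-04 and 0.00428 when any 1 pair was left out of the paired fit. The unpaired log2 fold change was -0.79 (SE 0.25 and adjusted p = 0.249 in edgeR), and it was -0.506 without control replicate 2. Lctl, which overlaps Zwilch in the annotation, averaged 1.88 ± 1.47 CPM in depleted and 2.77 ± 0.889 CPM in control libraries (SD, n = 3 each), far under the 62.9 ± 13.96 CPM in depleted and 109 ± 33.7 CPM in control libraries of Zwilch.

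The other RZZ subunits were not called. Zw10, which links the complex to dynein (chromosome 9, 49055576 to 49078775), had 62.0, 75.5 and 67.0 CPM in depleted libraries, against 60.7, 53.6 and 72.8 CPM in controls. The pairs moved in different directions, by 0.0306, 0.493 and -0.121 on the log2 scale. Its paired log2 fold change was 0.13 (SE 0.12 and adjusted p = 0.522 in edgeR), and it was -0.0451 without pair 2.

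Kntc1, the large Rod subunit (chromosome 5, 123749692 to 123821593), had 104, 138 and 123 CPM in depleted libraries, against 121, 147 and 136 CPM in controls. Each depleted library lay below its own control, and the groups overlapped. The paired log2 fold change was -0.15 (SE 0.08 and adjusted p = 0.246 in edgeR), with an interval of -0.33 to 0.02.

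**Figure D2:**
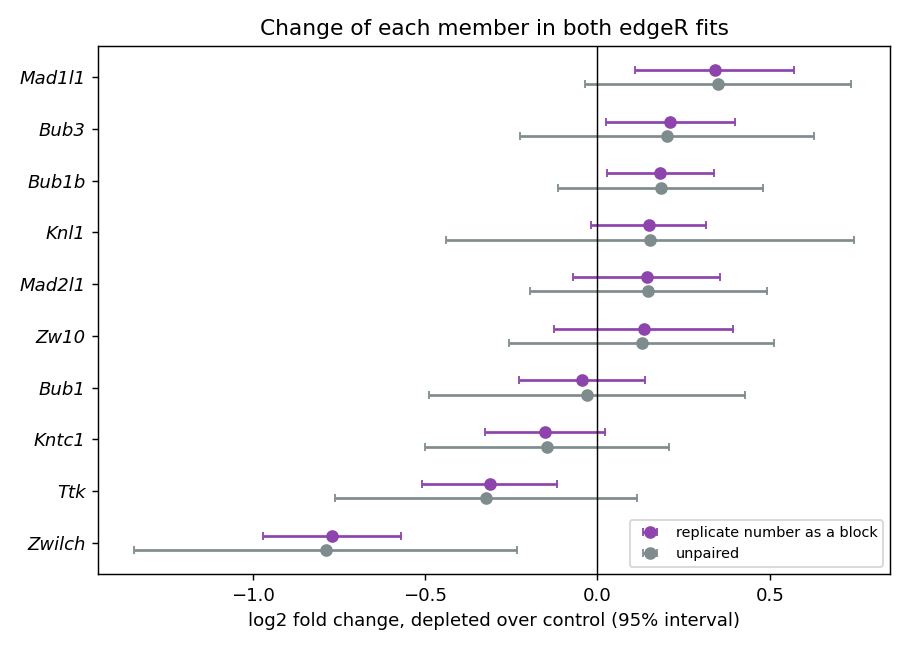
Log2 fold change of each member, depleted over control, with 95% intervals, in the paired fit (purple, upper) and the unpaired fit (grey, lower). The paired intervals of Zwilch and Ttk lie below 0, those of Mad1l1, Bub3 and Bub1b, which were not called after adjustment over all genes, lie above 0, and the unpaired intervals are wider for every member shown.

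Ratios of RZZ genes within a library cancel whatever scales a whole library. The log2 ratio of Zwilch over Kntc1 was -1.03, -0.81 and -1.05 in depleted libraries, against -0.52, 0.0 and -0.53 in controls, a difference of -0.62. The log2 ratio of Zwilch over Zw10 was -0.28, 0.05 and -0.18 in depleted libraries, against 0.48, 1.46 and 0.37 in controls, a difference of -0.9. Every depleted library was below every control in both ratios, and control replicate 2 was the farthest out. For Zw10 over Kntc1 the values were -0.75, -0.87 and -0.87 in depleted libraries, against -1.0, -1.45 and -0.9 in controls, a difference of 0.29. The ratios were chosen with the fall of Zwilch known and are given as a description, with no test. Without control replicate 2 the differences were -0.441, -0.559 and 0.118, so the last of them rested largely on that library.

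**Figure D3:**
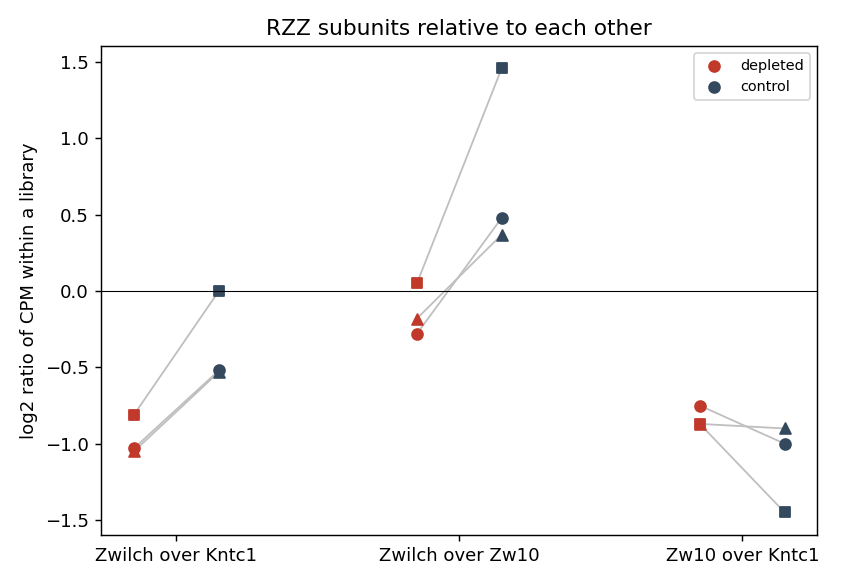
Log2 ratio of CPM between RZZ genes within each library (vertical axis), for depleted (red, left) and control (blue, right) libraries, with circles, squares and triangles for replicates 1, 2 and 3 and lines joining each pair. Both ratios with Zwilch on top are lower in all 3 depleted libraries, by 0.62 and 0.9 in the mean.

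Zwilch, Ttk and Kntc1, 3 of the members, had the lower value under IAA in all 3 pairs, where 24.1% of genes tested did. The 4 members higher in all 3 pairs were Bub3, Bub1b, Mad1l1 and Knl1, where 24.4% of genes tested had the same order. Per kilobase of genomic span, a scale that counts introns, the mean level of the members ran from 0.206 CPM per kb in depleted and 0.162 CPM per kb in control libraries for Mad1l1 to 16.0 CPM per kb in depleted and 13.9 CPM per kb in control libraries for Bub3. The span of the gene also differed widely among members, since Mad2l1 covers 5.9 kb and Mad1l1 312.9 kb. Genes of 30 to 100 kb had a median paired log2 fold change of -0.07 (3865 genes), and the 6 members of this class ran from -0.77 for Zwilch to 0.18 for Bub1b. Genes of 100 kb or more had a median of -0.126, against 0.34 for Mad1l1, the only member so long. Short genes had medians above 0. For genes under 10 kb it was 0.138 (5040 genes), beside 0.14 for Mad2l1. For genes of 10 to 30 kb it was 0.036 (4650 genes), beside 0.21 for Bub3 and 0.13 for Zw10. In bulk RNA, fewer cells in the stage that transcribes a gene and less RNA per cell cannot be told apart.

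Among 50 further genes of the pathway, 3 fell and 9 rose in the paired edgeR fit, with 7.9% and 4.96% of all genes as background. The 50 include Zfp207, the target of the degron, and it was 1 of the 9 that rose. The unpaired edgeR fit called 0 of them, with 4 at an unadjusted p under 0.05, where 10.9% of all genes passed. DESeq2 without a block called 1, Cdc26, lower, where it called 641 of all 17573 genes. Their median paired log2 fold change was 0.0198. When pair 1, 2 or 3 was left out, which also leaves fewer libraries, 6, 4 and 3 of the 12 calls remained, and Cdc26 and Ube2s remained each time. Each of the 12 genes had moved the same way in all 3 pairs. Its direction therefore stayed the same with a pair left out, which adds no further information. Pttg1, which lost its call each time, had log2 fold changes of 0.650, 0.681 and 0.607, beside 0.652 with all pairs.

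Cdc20, the APC/C activator that the mitotic checkpoint complex captures, had 178, 146 and 167 CPM in depleted libraries, against 169, 120 and 134 CPM in controls. It was higher in all 3 pairs and was not called (paired log2 fold change 0.23, SE 0.08 and adjusted p = 0.0929 in edgeR). Among 19 checkpoint partners 3 rose and 0 fell. The mitotic kinase gene Plk1 had 202, 151 and 173 CPM in depleted libraries, against 168, 117 and 136 CPM in controls (paired log2 fold change 0.33, edgeR adjusted p = 0.0148). Cdca8, which encodes the chromosomal passenger protein borealin, averaged 108 ± 14.1 CPM in depleted and 86.2 ± 17.8 CPM in control libraries (SD, n = 3 each; paired edgeR adjusted p = 0.0338). The groups of Cdca8 overlapped. Its call was lost with pair 1, 2 or 3 left out (log2 fold change 0.355, 0.242 and 0.392, edgeR adjusted p = 0.103, 0.157 and 0.0663). Incenp, the scaffold of the same complex, was the third gene called.

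Of 8 outer kinetochore genes 1 fell and 0 rose. Dsn1, a subunit of the Mis12 complex on which Knl1 sits, had 32.4, 36.1 and 32.2 CPM in depleted libraries, against 45.7, 51.5 and 43.2 CPM in controls. The groups did not overlap, and the paired log2 fold change was -0.48 (SE 0.12 and adjusted p = 0.0183 in edgeR). With pair 1, 2 or 3 left out the log2 fold change was -0.470, -0.463 or -0.521, about as large as with all pairs, and the adjusted p was between 0.0702 and 0.0747.

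The target of the checkpoint, the APC/C with its ubiquitin-conjugating enzymes and substrates, held 2 genes that fell and 5 that rose among 20. Cdc26, a small subunit that binds and stabilises Cdc16, had 32.5, 41.1 and 33.7 CPM in depleted libraries, against 51.7, 60.2 and 56.2 CPM in controls. All depleted libraries lay below all controls, and the paired log2 fold change was -0.65 (SE 0.11 and adjusted p = 0.00274 in edgeR). Anapc10, a subunit that takes part in substrate recognition, averaged 29.0 ± 2.72 CPM in depleted and 43.0 ± 9.79 CPM in control libraries (SD, n = 3 each; paired edgeR adjusted p = 0.0195). It shares its interval with Abce1, at 388 CPM in depleted and 422 CPM in control libraries, and without a stated strand reads of the genes may have been divided between them.

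Among the genes that rose, Ube2s, which extends ubiquitin chains for the APC/C, had 215, 171 and 215 CPM in depleted libraries, against 174, 113 and 161 CPM in controls (paired log2 fold change 0.44, SE 0.08 and adjusted p = 0.00436 in edgeR). Ube2c, which starts these chains, averaged 75.4 ± 19.1 CPM in depleted and 57.9 ± 14.04 CPM in control libraries (SD, n = 3 each; paired edgeR adjusted p = 0.0232). Their groups overlapped, and every depleted library lay above its own control. Anapc7, an APC/C scaffold subunit, averaged 109 ± 4.47 CPM in depleted and 82.9 ± 10.7 CPM in control libraries, with no overlap (SD, n = 3 each; paired edgeR adjusted p = 0.0199). Pttg1 encodes securin, which the APC/C destroys to free separase, and had 11.7, 22.8 and 24.4 CPM in depleted libraries, against 7.46, 15.1 and 15.0 CPM in controls (paired log2 fold change 0.65, edgeR adjusted p = 0.0253). Anapc5 was the fifth gene called. Ube2s, Ube2c, Pttg1 and Cdc20 cover 4.3, 3.0, 7.2 and 4.4 kb, and genes under 10 kb had a median paired log2 fold change of 0.138. Plk1, Cdca8 and Anapc7 cover 10.4, 18.5 and 22.5 kb, and genes of 10 to 30 kb had a median of 0.036. The part of gene span in these changes was not tested.

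**Figure D4:**
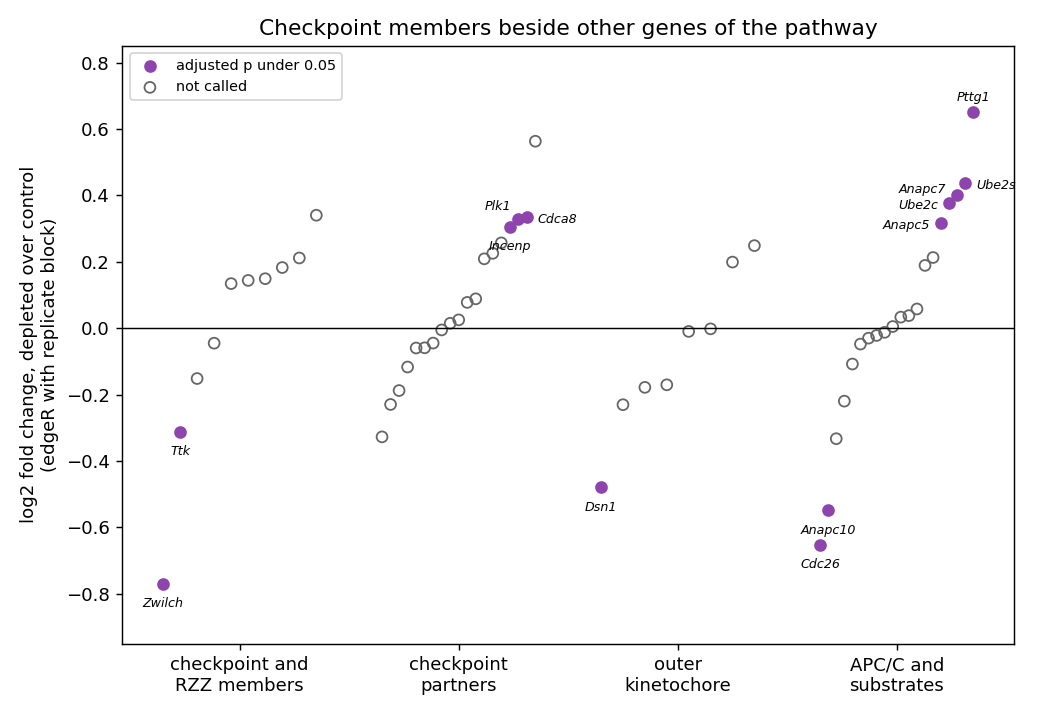
Paired log2 fold change, depleted over control (vertical axis), of the 10 members and of the genes in 3 further lists of the pathway, ordered within each list, with filled points for an adjusted p under 0.05. Zwilch at -0.77 is the lowest point plotted, and Pttg1 at 0.65 the highest.

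Rae1, a relative of Bub3 that binds the same kind of motif in Nup98, and Nup98 itself were not called, with paired log2 fold changes of 0.04 for both. The 3 genes whose centred log2 CPM over the 6 libraries lay nearest to that of Bub3, among 17573, were Phax, an adaptor for nuclear export of U snRNAs, Tiam1, an exchange factor for Rac, and Atp6ap1, an accessory subunit of the proton pump. Their root mean square distances to Bub3 were 0.0338, 0.042 and 0.0562 on the log2 scale, beside a median of 0.441 over all genes. Phax had 109, 85.3 and 80.8 CPM in depleted libraries, against 91.7, 60.9 and 81.0 CPM in controls, and was not called (paired edgeR adjusted p = 0.149). It overlaps Aldh7a1, at 47.1 CPM in depleted and 44.4 CPM in control libraries, and reads may have been divided between these genes. Among the members Bub1b lay nearest to Bub3, at 0.189, and Zwilch farthest, at 0.706.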

How the data were processed

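RNA labelled with 4sU was measured in 3 depleted and 3 control libraries. The authors deposited 1 table of estimated counts per gene, given as whole numbers. The submitters' processing notes name, without a role for any, the build mm10, DESeq2 1.42.0, StringTie 2.2.1 and HISAT2 2.2.1. Annotation, strand setting and spike-ins are not stated there. How reads of overlapping genes were divided is unknown. Libraries held 14336811 to 25916628 counts.

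Counts were fitted in R 4.3.3 with edgeR 4.0.16 (filterByExpr, TMM scaling, robust quasi-likelihood test) over 17573 genes. A gene was called at a Benjamini-Hochberg adjusted p under 0.05. Log2 fold changes are depleted over control. The scripts were tested on simulated data. Alternatives were the replicate block, DESeq2 size factors, no filter, DESeq2 1.42.0, and each library or pair left out.

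The labels give both groups numbers 1 to 3. Deviations from the group mean correlated at 0.268 to 0.387 between libraries with the same number, so the numbers were taken as pairs. Between others the correlations were -0.265 to -0.025. Deviations within a group cancel out by construction, so positive values for the same number push the others down, and the ranges are not independent. Whether replicates were separate cultures is not stated, and p-values then reflect only how these libraries vary.

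The members and lists were chosen with earlier results of these data known. Named genes were the members, Zfp207, Cdc20, up to 6 called pathway genes in each direction with the largest change, and the 3 genes nearest to Bub3. Incenp and Anapc5, which complete short counts, and Nup98 and Rae1 were named after their values were seen. Coordinates, spans and promoters came from RefSeq on GRCm38.p6, the assembly that mm10 names. The ratios between RZZ genes were added after seeing the data.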

Additional observations from a re-analysis of the deposited data

How the results depend on the processing

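The calls over all genes depended most on the pairing. The unpaired edgeR fit called 139 genes, the fit with the replicate block 2259 and DESeq2 without a block 641, while 0 to 1 were called when single libraries were left out and 1418, 1428 and 949 when pair 1, 2 or 3 was left out of the blocked fit. The members had 0 calls unpaired, 2 with the block and 1 to 2 with a pair left out, and the pathway lists 0 calls unpaired, 12 with the block, 3 to 6 with a pair left out and 1 in DESeq2. The median of the members was -0.0417 to 0.181 with single libraries left out and 0.036 to 0.185 in the blocked fit with a pair left out. With single libraries left out, the unpaired log2 fold change ran between -0.244 and 0.0895 for Bub1 (0.0351 without depleted replicate 1 and 0.0829 without depleted replicate 3), -0.132 and 0.426 for Knl1, and -0.188 and 0.752 for Zfp207. In the blocked fit Bub1 turned to 0.0215 without pair 1 and Zw10 to -0.0451 without pair 2. None of these values that changed sign was called, and the cause was not tested. DESeq2 size factors and no filter changed no call of a member. Over the 10 members and Zfp207, 128 values under the alternatives kept their direction and side of the threshold, 7 changed sign and 8 passed the threshold that the unpaired fit missed.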
